A study of Mus musculus with 18 samples.

Results

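Immediate early genes are switched on within minutes of a growth factor, cytokine or stress signal, without new protein synthesis, and most encode transcription factors. FOS and JUN proteins pair to form AP-1, which binds the site TGANTCA, and EGR proteins are zinc finger factors that bind GC-rich sites. Their own genes are driven mainly by MAP kinases acting through SRF with its ternary complex partners and through CREB, and the RNAs are short-lived. In red cell precursors such signals come largely from stem cell factor and erythropoietin (EPO).

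The 10 genes followed here are Fos, Fosb and Fosl2 of the FOS family, Jun, Junb and Jund of the JUN family, Egr1, Egr2 and Egr3 of the EGR family, and Ier2. They were chosen by name, and all 10 were found in each count table, among 25628 genes listed in experiment 1 and 26903 in experiment 2. RNA was sequenced from a TgSpi1 mouse erythroleukemic line, that is, leukemic erythroid cells from bone marrow that overexpress the transcription factor SPI1 (PU.1), grown with EPO in every group. Each cell culture carried a doxycycline-inducible hairpin against Spi1. Experiment 1 compared cells without doxycycline (Exp1_NoDox) with cells given it for 48 h (Exp1_Dox). Experiment 2 crossed that treatment with 6 h of 3 µM entinostat, an inhibitor of HDAC1 and HDAC3, or with its vehicle DMSO, giving NoDox_DMSO, Dox_DMSO, NoDox_Entinostat and Dox_Entinostat. Each group had 3 libraries, and none had a control hairpin; doxycycline itself and the fall of Spi1 RNA cannot be told apart. All groups come from 1 line, so the spread between libraries is that of cultures of this line.

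Totals were 82.7 to 113.8 M counts per library in experiment 1 and 43.1 to 48.9 M in experiment 2. Spi1 RNA was lower with doxycycline in every library (379 to 459 against 125 to 133 CPM in experiment 1), where CPM are counts per M counts after TMM scaling. Of 11 erythroid markers, 10 averaged over 1 CPM in each group, and Hba-a2 was at 0 to 0.0246 CPM. Their summed level was higher with doxycycline, at 5822 to 6854 against 3850 to 4557 CPM in experiment 1, 4837 to 5802 against 3507 to 3814 CPM in DMSO and 4891 to 5390 against 3121 to 3482 CPM in entinostat. Of these sums Tfrc alone made up 2868 to 4914 CPM in experiment 1 and 1690 to 4161 CPM in experiment 2, where Hbb-bt stood at 118 to 2310 CPM. Megakaryocyte markers summed to 25.4 to 67.0 CPM without entinostat and 65.5 to 126 CPM with it, and mast cell and basophil markers to 243 to 355 CPM in experiment 1. In experiment 2 the latter stood at 131 to 193 CPM in NoDox_Entinostat against 224 to 274 CPM in NoDox_DMSO and at 102 to 135 CPM in Dox_Entinostat against 175 to 251 CPM in Dox_DMSO, of which Gata2 made up 58.8 to 269.7 CPM, with Fcer1a at 0.799 to 94.8 CPM and Ms4a2 at 0 to 30.7 CPM. Markers of B cells, T and NK cells, neutrophils and stroma summed to under 1 CPM in every library of experiment 1. With entinostat the summed T and NK markers went from 0 to 0.135 CPM in the DMSO groups to 0.778 to 1.48 CPM, the stromal and endothelial markers from 0.0491 to 0.284 CPM to 1.57 to 3.75 CPM, and the 6 macrophage markers stood at 5.46 to 11.4 CPM in NoDox_Entinostat against 2.75 to 3.08 CPM in NoDox_DMSO. Cd68 made up most of the macrophage sum, at 1.44 to 10.9 CPM over experiment 2, and no other macrophage marker exceeded 0.295 CPM there. The part of these markers in the results below was not tested. In bulk RNA, fewer cells with a transcript and less of it per cell cannot be told apart. The first Dox_DMSO and NoDox_Entinostat libraries lay farthest from their group partners (root mean square distance 0.811 and 0.778 on the log2 scale, against 0.452 to 0.619 for the other 10 libraries of experiment 2).

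Upstream sequence is shown for the members that differ most in how they behaved below, Fos, Fosb, Jun and Egr2 on one side and Junb on the other. Each is the 250 bases before a RefSeq start site (GRCm38.p6; for Egr2, a window that lies within an intron of a longer GENCODE transcript), read 5′ to 3′ on the gene's strand. Capitals mark matches to any of 6 motifs searched on either strand, namely the CArG box bound by SRF, the CREB site TGACGTCA, the AP-1 site TGANTCA, the EGR site GCGNGGGCG, the purine-rich GAGGAAG favoured by PU.1, and TATAAA.
Fos, chr12:85473640-85473889, plus strand: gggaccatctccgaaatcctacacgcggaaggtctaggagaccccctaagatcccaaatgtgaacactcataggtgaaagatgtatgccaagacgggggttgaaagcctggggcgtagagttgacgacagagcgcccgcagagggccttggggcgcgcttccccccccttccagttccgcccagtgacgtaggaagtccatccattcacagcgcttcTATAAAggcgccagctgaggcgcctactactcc
Fosb, chr7:19310046-19310295, minus strand: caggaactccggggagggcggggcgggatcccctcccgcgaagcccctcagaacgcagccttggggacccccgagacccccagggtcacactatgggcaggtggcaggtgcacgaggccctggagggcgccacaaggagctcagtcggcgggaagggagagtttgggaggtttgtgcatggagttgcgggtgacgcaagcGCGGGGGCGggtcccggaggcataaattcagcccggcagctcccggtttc
Jun, chr4:95052223-95052472, minus strand: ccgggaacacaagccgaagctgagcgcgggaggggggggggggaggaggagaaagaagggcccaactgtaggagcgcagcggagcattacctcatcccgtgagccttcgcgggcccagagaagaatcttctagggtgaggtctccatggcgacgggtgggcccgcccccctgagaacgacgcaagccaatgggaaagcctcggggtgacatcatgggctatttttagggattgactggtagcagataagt
Egr2, chr10:67537619-67537868, plus strand: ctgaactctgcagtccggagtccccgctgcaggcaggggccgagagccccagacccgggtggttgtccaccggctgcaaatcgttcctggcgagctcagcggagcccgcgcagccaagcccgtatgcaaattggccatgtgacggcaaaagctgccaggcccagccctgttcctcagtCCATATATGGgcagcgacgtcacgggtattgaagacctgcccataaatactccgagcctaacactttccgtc
Junb, chr8:84978749-84978998, minus strand: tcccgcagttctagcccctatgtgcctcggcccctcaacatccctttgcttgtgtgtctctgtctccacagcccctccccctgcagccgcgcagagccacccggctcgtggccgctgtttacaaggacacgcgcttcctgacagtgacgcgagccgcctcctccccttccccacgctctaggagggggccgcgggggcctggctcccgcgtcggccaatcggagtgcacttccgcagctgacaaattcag
Fos held TATAAA from -33 to -28, Fosb an EGR site from -50 to -42, and Egr2 a CArG box from -72 to -63, counted from the base before the start site as -1. The windows of Jun, Junb and Jund held none of the 6 motifs in these exact letters, and that of Fosl2 held an EGR site from -79 to -71. The Jund window, chr8:70697489-70697738, does not adjoin the GENCODE gene, which starts at 70698949. It therefore does not show the sequence just before that start. RefSeq windows were found for 7 of the 10 members (11 windows, 5 of them for Egr2). Of those 5, 4 held a CArG box, and the most upstream, chr10:67535249-67535498, held none of the 6 motifs. The windows starting at 67537619, 67537620 and 67537680 overlap and hold the same CCATATATGG, so they do not count as separate boxes. The window starting at 67537316 held another, CCTTTTTTGG. Of all 32851 windows in the table, 1.47% held a CArG box, 1.55% TGACGTCA, 6.75% TGANTCA, 4.70% GCGNGGGCG, 10.6% GAGGAAG and 12.4% TATAAA. A match is a string of letters and not a bound site, and elements farther upstream lie outside these windows.

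The members spanned more than 3 orders of magnitude in level per length (CPM per kb of exon). In NoDox_DMSO the order ran from Ier2, a nuclear protein gene of the immediate early class, at 10.3 ± 1.14 CPM per kb (SD, n = 3 throughout), through Junb at 7.35 ± 1.10, Egr1 at 3.75 ± 1.11 and Jund at 1.36 ± 0.347, to Jun at 0.362 ± 0.110 and Fosl2 at 0.274 ± 0.0482. Fos, the founding member of the class, stood at only 0.0282 ± 0.0164 CPM per kb, Fosb at 0.0152 ± 0.00864, Egr2 at 0.0108 ± 0.00982 and Egr3 at 0.00660 ± 0.0114. The ranges of Jun and Fosl2 overlapped, as did those of each neighbouring pair from Fos down to Egr3, and the other neighbours did not overlap. In raw terms Fos had 4, 1 and 4 counts in the NoDox_DMSO libraries and Egr3 had 0, 0 and 4. In NoDox_Entinostat Jun moved above Jund in the order, at 1.89 ± 0.665 against 1.47 ± 0.610 CPM per kb, with overlapping ranges. Dox_Entinostat had Ier2 first at 7.73 ± 0.687 CPM per kb, then Junb at 2.90 ± 0.563 and Egr1 at 2.35 ± 0.481, the last pair overlapping.

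**Figure D1:**
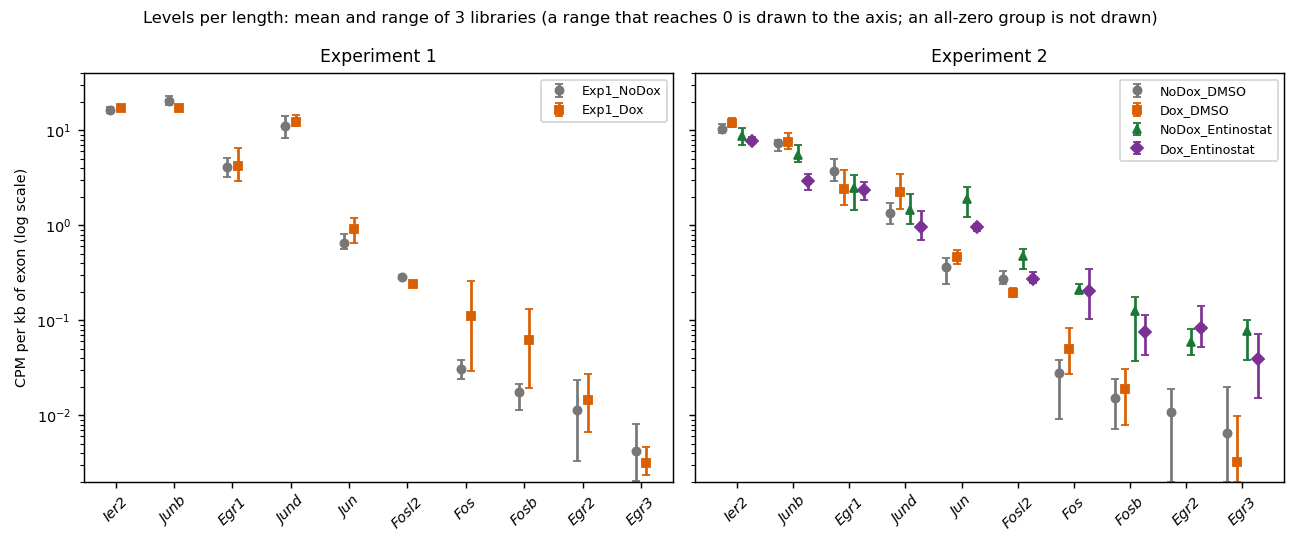
Level per length of each member (CPM per kb of exon, log scale) in the 2 groups of experiment 1 (left) and the 4 groups of experiment 2 (right), as the mean and range of 3 libraries. Ier2, Junb, Egr1 and Jund lie highest in NoDox_DMSO (10.3, 7.35, 3.75 and 1.36 CPM per kb) and Fos, Fosb, Egr2 and Egr3 lowest. For Jun and these low genes each entinostat group lies above the DMSO group of the same doxycycline treatment.

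The first comparison asked whether the class responds when Spi1 RNA is lowered. In experiment 1, 7 members passed the filter on low counts (Fos, Egr2 and Egr3 did not), and 0 of the 7 passed the test by edgeR at an adjusted p under 0.05, where 13.6% of all 13811 genes tested did. At an unadjusted p under 0.05 the count was also 0 (26.2% of all genes), and DESeq2 and limma-voom each called 0. The groups did not overlap for Fosl2 and Junb, 2 of the 7, against 32.1% of all genes. Same-number libraries met the limit set for pairing here, and once the number entered the model as a block, Fosb (log2 fold change 1.70, adjusted p = 0.00692), Fosl2 (-0.26, 0.0457) and Junb (-0.23, 0.0212) passed, 3 members where 50.9% of all genes did.

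Fosb, which encodes a FOS family subunit of AP-1, had 0.120, 0.0718 and 0.135 CPM in Exp1_NoDox and 0.830, 0.122 and 0.218 CPM in Exp1_Dox. The first Exp1_Dox library stood far above the other 5, and the groups overlapped. The log2 fold change was 1.86 ± 0.79 (standard error, adjusted p = 0.200 by edgeR), and 0.65 (adjusted p = 0.394) without that library. Fos showed the same library, at 0.612 CPM in the first Exp1_Dox library (59 counts) against 0.112 and 0.0687 CPM in the others and 0.0564 to 0.0897 CPM in Exp1_NoDox. Egr1 was also highest there, at 29.6 CPM against 13.4 and 13.2 CPM, while Exp1_NoDox had 22.9, 17.3 and 14.7 CPM. Its log2 fold change was 0.033 ± 0.36 (adjusted p = 0.976), with a 95% interval from -0.83 to 0.90, and -0.46 (adjusted p = 0.232) without that library. Jun had 1.81, 2.62 and 1.81 CPM without doxycycline and 3.79, 2.80 and 2.11 CPM with it, again highest in the first Exp1_Dox library (log2 fold change 0.47 ± 0.26, adjusted p = 0.330, and 0.24, adjusted p = 0.553, without it). Fos, Fosb, Jun and Egr1 were thus each highest in the same library, which was the farthest from its group partners in experiment 1 (distance 0.509, the others 0.367 to 0.487).

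Fosl2, which encodes the FOS protein FRA2, lay lower in each Exp1_Dox library, at 2.40, 2.36 and 2.20 CPM against 2.64, 2.89 and 2.80 CPM (-0.26 ± 0.11 on the log2 scale, adjusted p = 0.210). Junb, whose protein often opposes that of Jun, stood at 42.8, 52.5 and 45.4 CPM without and 42.2, 39.5 and 38.5 CPM with doxycycline (-0.23 ± 0.10, adjusted p = 0.227). Both differences were small beside the level, and neither passed without the block. Jund (0.17 ± 0.21) and Ier2 (0.082 ± 0.085) were within the spread between libraries. Egr2 had 1 to 9 counts and Egr3 1 to 3 in every library of experiment 1, where the table holds no value under 1, so no difference could be detected at this depth.

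In DMSO the same question gave 0 of 10 members at an adjusted p under 0.05, against 9.31% of 15051 genes. At an unadjusted p under 0.05 there was 1 member (Egr2; 20.1% of all genes), and DESeq2 and limma-voom each called 0. Egr1, an EGR factor known to promote monocytic over other fates, had 14.7, 22.5 and 13.2 CPM in NoDox_DMSO and 7.27, 17.1 and 8.25 CPM in Dox_DMSO. Replicate 2 was the highest in each group, and the groups overlapped (log2 fold change -0.63 ± 0.36, adjusted p = 0.389, 95% interval -1.41 to 0.16). Within each replicate number Egr1 was lower with doxycycline, and same-number libraries met the pairing limit for these groups. The third Dox_DMSO library nevertheless correlated more with the second NoDox_DMSO library (r = 0.214) than with the third (0.102). Once blocked by number over all 12 libraries of experiment 2, Egr1 alone of the members passed in edgeR (-0.69, adjusted p = 0.0362), where 13.5% of all genes did. That block also spans entinostat libraries that missed the pairing limit, so it is not a paired test of the DMSO groups alone. Fosl2 was again lower in each treated library, 1.72, 1.81 and 2.11 against 3.19, 2.37 and 2.40 CPM (-0.49 ± 0.25, adjusted p = 0.296), the single member whose groups did not overlap, as in 25.8% of all genes. Jund stood at 2.97, 2.51 and 5.77 CPM against 1.73, 2.19 and 2.88 CPM (0.73 ± 0.40, adjusted p = 0.358). Fos (0.83 ± 0.71), Fosb (0.31 ± 0.81), Jun (0.35 ± 0.31), Junb (0.023 ± 0.23) and Ier2 (0.22 ± 0.18) had adjusted p values from 0.591 to 0.984. Egr2 had 2, 3 and 0 counts in NoDox_DMSO and 0 in all 3 Dox_DMSO libraries, too few to tell the groups apart.

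**Figure D2:**
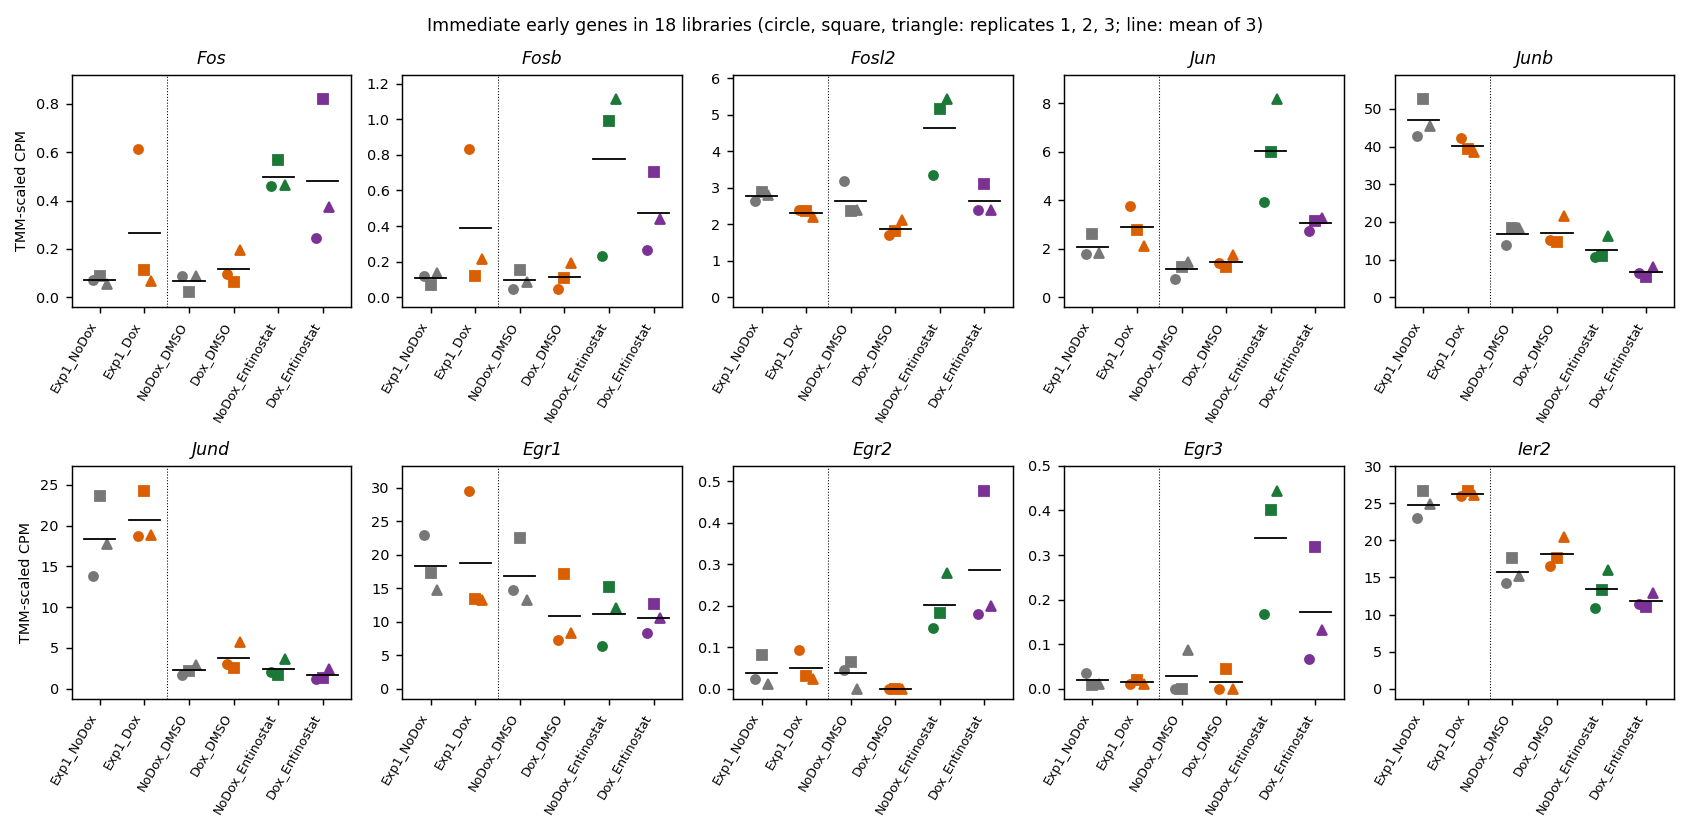
TMM-scaled CPM of each member (linear scale, 1 panel per gene) in all 18 libraries; the dotted line separates the 2 experiments, symbols give the replicate number and bars the mean of 3. The first Exp1_Dox library stands apart for Fos (0.612 CPM), Fosb (0.830 CPM) and Egr1 (29.6 CPM). For Fos, Fosb, Jun, Egr2 and Egr3 each entinostat group lies above the DMSO group of the same doxycycline treatment.

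In cells that kept high Spi1, entinostat for 6 h raised Jun 5.21-fold and Fosl2 1.75-fold. Fos, Fosb, Egr2 and Egr3, barely detected in DMSO, averaged 0.203 to 0.776 CPM with entinostat and were called higher, which is a description for the reason given below. Junb, Jund, Egr1 and Ier2, the most abundant members per kb of exon in DMSO, did not pass the test. By edgeR 6 of the 10 members rose and 0 fell, where 47.2% of all genes were called, 30.3% up and 16.9% down. Of the 6, Fos, Fosb, Egr2 and Egr3 entered the test through the entinostat libraries alone, since no DMSO library reached the filter's limit of 0.213 CPM in any of them. They could only have risen, so that this count and the adjusted p values of these genes are descriptions. When 1 CPM was required in 3 or more libraries, 6 members were tested and 2 of them, Fosl2 and Jun, rose. Of all 12218 genes tested in that way, 45% were called. The groups did not overlap for those 6 risers, as in 60.2% of all genes.

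Jun, the AP-1 subunit that activates its own gene, had 0.764, 1.26 and 1.44 CPM in NoDox_DMSO and 3.93, 5.99 and 8.17 CPM in NoDox_Entinostat. Every entinostat library was above every DMSO library, and the first one, which lay apart in general, was the lowest of the 3. The log2 fold change was 2.38 ± 0.31 (adjusted p = 6.08e-05), and it passed without each library in turn (2.10 to 2.61). Jun is a gene of 1 exon (mm10 chromosome 4, 95049034 to 95052222, minus strand), and 232 of its bases are shared with exons of Junos, an antisense gene, which reads without strand cannot separate. Junos rose as well, from 0.0806 ± 0.0247 to 0.725 ± 0.176 CPM (3.12 ± 0.51, adjusted p = 0.000292 by edgeR), at a level below that of Jun. No DMSO library reached the filter's limit of 0.213 CPM for Junos, so it could only have risen and its change is a description.

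Fos (mm10 chromosome 12, 85473890 to 85477273) had 4, 1 and 4 counts in DMSO and 22, 31 and 25 with entinostat, that is 0.0899, 0.0217 and 0.0873 CPM against 0.462, 0.567 and 0.463 CPM. The ratio of summed counts was 7.56 (95% interval 3.79 to 17.2, exact binomial, counting error only), and the fitted log2 fold change 2.86 ± 0.60 (adjusted p = 0.00182). Its level with entinostat, 0.497 ± 0.0600 CPM, was still far below that of Jun at 6.03 ± 2.12 CPM.
Fosb went from 0.0449, 0.152 and 0.0873 CPM to 0.231, 0.987 and 1.11 CPM, with the first entinostat library far below the others (3.00 ± 0.68, adjusted p = 0.00281). Egr3, a target of antigen and growth factor signals, had 0, 0 and 4 counts against 8, 22 and 24 (ratio of summed counts 11.8, interval 4.34 to 44.8), and Egr2 2, 3 and 0 against 7, 10 and 15 (5.58, 2.16 to 18.4), with adjusted p values of 0.0100 and 0.0259. Fosl2 had 3.19, 2.37 and 2.40 CPM against 3.36, 5.15 and 5.43 CPM, groups that hardly separated (0.81 ± 0.24, adjusted p = 0.0143).

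Leaving out 1 library, which also leaves fewer libraries to test, ended 2 calls at folds close to those of all libraries. Fosl2 lost its call without the second (adjusted p = 0.0634) or the third NoDox_DMSO library (0.0591) or the second (0.0529) or the third NoDox_Entinostat library (0.0632), with log2 fold changes of 0.68 to 0.74. Egr2 lost it without the first (0.0641) or the third NoDox_DMSO library (0.0795) or the third NoDox_Entinostat library (0.0833), with 1.83 to 2.53 against 2.39 with all.

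The members most abundant per kb of exon leaned the other way or stayed level. Egr1 had 6.45, 15.1 and 11.98 CPM with entinostat against 14.7, 22.5 and 13.2 CPM (-0.59 ± 0.36, adjusted p = 0.207, 95% interval -1.37 to 0.20). Junb had 10.8, 11.0 and 16.2 CPM against 14.0, 18.3 and 18.4 CPM (-0.42 ± 0.23, adjusted p = 0.155), Ier2 10.8, 13.3 and 16.0 CPM against 14.2, 17.6 and 15.2 CPM (-0.23 ± 0.18, adjusted p = 0.320), and Jund stood at 0.11 ± 0.40 (adjusted p = 0.847). All 4 groups of values overlapped.

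**Figure D3:**
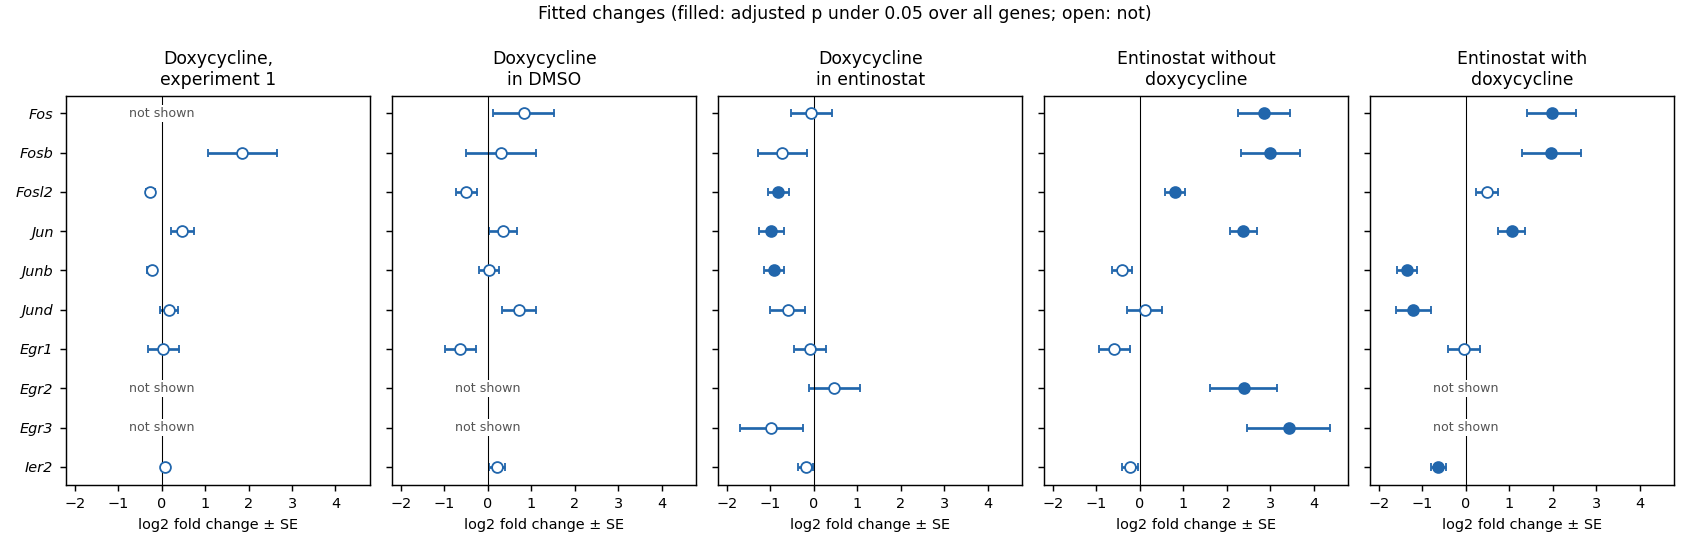
Fitted log2 fold change ± standard error of each member in 5 comparisons; filled points passed at an adjusted p under 0.05 over all genes and open points did not. Values are not shown where the member was not tested or where a group held 0 to 2 counts in all (Egr2 and Egr3 in Dox_DMSO). Entinostat without doxycycline has filled points to the right for Fos, Fosb, Fosl2, Jun, Egr2 and Egr3, and entinostat with doxycycline has filled points to the left for Junb, Jund and Ier2. With entinostat Fos, Fosb, Egr2 and Egr3 could only have risen, so their filled points are descriptions.

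In cells given doxycycline, entinostat raised Jun and lowered Junb, Jund and Ier2. Fos, Fosb, Egr2 and Egr3 were called higher too, which gave 5 of the 10 members up and 3 down, where 63.7% of all genes were called, 33.9% up and 29.9% down. Fosl2 and Egr1 did not pass. The groups did not overlap for 9 members, all but Egr1, as in 66% of all genes. The same 4 low members entered the test through entinostat libraries alone and could only have risen, so that their part of the count and their adjusted p values are descriptions. When 1 CPM was required in 3 or more libraries the counts were 2 up (Jun and Fosl2, adjusted p = 0.0449) and 3 down. With that filter 64.1% of all 12218 genes tested were called.

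Jun stood at 1.40, 1.25 and 1.77 CPM in Dox_DMSO and at 2.75, 3.16 and 3.28 CPM in Dox_Entinostat (1.05 ± 0.30 on the log2 scale, adjusted p = 0.00879). Every treated library was higher, and the call held without each library in turn. Junos, which again could only have risen, went from 0.108 ± 0.0644 to 0.927 ± 0.368 CPM beside it. Fos had 4, 3 and 9 counts against 11, 36 and 17 (1.98 ± 0.56, adjusted p = 0.00803), and Fosb 2, 5 and 9 against 12, 31 and 20 (1.96 ± 0.68, adjusted p = 0.0225). The second Dox_Entinostat library was the highest for both. Egr2 had 0 counts in the 3 Dox_DMSO libraries and 8, 21 and 9 with entinostat, at least 12.6-fold higher when 3 counts over the group are taken as the floor (the exact 95% interval of the ratio starts at 9.76, counting error only). Egr3 had 0, 2 and 0 counts against 3, 14 and 6, a ratio of 11.4 (95% interval 2.83 to 100.1, counting error only, adjusted p = 0.0252 by edgeR).

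Junb fell in the same libraries in which Jun rose. It stood at 15.3, 14.6 and 21.7 CPM in Dox_DMSO and at 6.56, 5.46 and 8.04 CPM in Dox_Entinostat (-1.36 ± 0.23 on the log2 scale, adjusted p = 0.000310), and passed without each library in turn. Ier2 fell from 16.5, 17.7 and 20.5 to 11.4, 11.0 and 12.9 CPM (-0.63 ± 0.18, adjusted p = 0.00771), also without each library in turn. Jund, the JUN protein most often present in resting cells, went from 2.97, 2.51 and 5.77 to 1.16, 1.32 and 2.38 CPM (-1.21 ± 0.40, adjusted p = 0.0190). Egr1 was level, at 8.39, 12.7 and 10.5 CPM against 7.27, 17.1 and 8.25 CPM (-0.046 ± 0.36, adjusted p = 0.918, 95% interval -0.83 to 0.74).

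Several of these calls were lost when 1 library was left out, which also leaves fewer libraries to test, and the estimates below kept their sign. Without the second Dox_Entinostat library Fos (1.35, adjusted p = 0.0519), Fosb (1.55, 0.0997), Egr3 (2.54, 0.124) and Jund (-1.09, 0.0732) did not pass. Fosb was also lost without the first (1.61, 0.0604) or second Dox_DMSO library (1.89, 0.0652), Egr3 without the first (2.84, 0.0560) or the third Dox_DMSO library (2.76, 0.0840), and Jund without the third Dox_DMSO library (-0.77, 0.117) or the first Dox_Entinostat library (-1.03, 0.0708). Junb, Jund and Ier2 have the most GC-rich transcripts of the 10 (62.6, 67.1 and 60.9%, the first pair at the 98.5th and 99.7th percentile of coding genes), and with a trend over GC content and length removed (an alternative chosen after seeing the data) Jund no longer passed (-0.65, adjusted p = 0.124) while Egr1 (0.68, 0.0489) and Fosl2 (1.20, 0.000766) rose. Junb shares 173 exonic bases with Prdx2 on the other strand, a peroxiredoxin gene abundant in red cells (1610 ± 496 CPM in Dox_DMSO and 2112 ± 192 CPM in Dox_Entinostat), and Jund shares 877 with Gm11175 (0.247 and 0.0750 CPM); reads without strand cannot be assigned to either gene in these bases.

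Under entinostat, doxycycline lowered Fosl2, Jun and Junb. These were 3 of the 10 members, with 0 rising, where 24% of all genes were called, 8.96% up and 15.1% down. The same 3 members had groups that did not overlap, against 37.6% of all genes. Jun went from 3.93, 5.99 and 8.17 to 2.75, 3.16 and 3.28 CPM (-0.98 ± 0.29, adjusted p = 0.0329), Junb from 10.8, 11.0 and 16.2 to 6.56, 5.46 and 8.04 CPM (-0.92 ± 0.23, adjusted p = 0.0166) and Fosl2 from 3.36, 5.15 and 5.43 to 2.39, 3.11 and 2.40 CPM (-0.82 ± 0.24, adjusted p = 0.0306). The other 7 had adjusted p values from 0.269 to 0.936, among them Fos at -0.055 ± 0.48, Egr1 at -0.087 ± 0.36 and Ier2 at -0.19 ± 0.18. None of the 3 falls reached 2-fold.

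The 3 calls lay near the threshold, and each was lost in fits with 1 library fewer. Without the third NoDox_Entinostat library Fosl2 (-0.70, adjusted p = 0.138), Jun (-0.70, 0.173) and Junb (-0.71, 0.0922) all missed it. Junb was also lost without the second Dox_Entinostat library (-0.80, 0.0697). Jun was lost without the first (0.0795), the second (0.0849) or the third Dox_Entinostat library (0.0881) or the second NoDox_Entinostat library (0.0963), with log2 fold changes of -0.91 to -1.03. Fosl2 was lost without the first (0.0711) or the third Dox_Entinostat library (0.109) or the second NoDox_Entinostat library (0.120), with -0.74 to -0.76, and with the GC and length trend removed Fosl2 (0.323) and Jun (0.0528) did not pass. Fosl2 was also lost when the entinostat groups were fitted alone (0.0720). Prdx2, which overlaps Junb, moved the other way (1.09 ± 0.28, adjusted p = 0.0174).

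Whether doxycycline acted differently in entinostat than in DMSO was asked of the interaction. By edgeR 0 of 10 members passed, where 0.272% of all genes did. At an unadjusted p under 0.05 there were 4 (Jun, Junb, Jund and Egr2), against 15.8% of all genes, and DESeq2 and limma-voom each called 0. Jun had the clearest estimate, with a doxycycline effect lower by 1.33 ± 0.43 on the log2 scale in entinostat than in DMSO (adjusted p = 0.302, 95% interval of the difference -2.25 to -0.40), and Junb lay at -0.95 ± 0.32 (adjusted p = 0.314). Without the first NoDox_Entinostat library Jun (-1.56, adjusted p = 0.0330) and Junb (-1.05, 0.0407) passed, and without the first Dox_DMSO library Junb did (-1.03, 0.0487). With both of those libraries left out, Jun (-1.59, 0.00264), Junb (-1.13, 0.00613), Jund (-1.58, 0.0321) and Ier2 (-0.60, 0.0188) passed, 4 of 10 where 51.5% of all genes did.

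Across the 12 libraries of experiment 2 the log2 CPM of some members varied together. Jun varied with Fosb (Pearson's r = 0.919), Egr3 (0.886) and Fos (0.841), and Junb with Ier2 (0.867) and Jund (0.791), and Fos and Junb had a negative r (-0.640). Jun had an r of -0.375 with Junb and -0.073 with Jund, Fosl2 had -0.161 with Junb, and Egr1 lay between -0.392 (Fos) and 0.287 (Ier2) with all others. These are descriptions over libraries that share treatment groups. For members averaging at least 5 CPM, the genes most alike over the 12 libraries were Ssbp4 (r = 0.978), Hspbap1 (0.954) and Akap10 (0.953) for Junb, Dazap1 (0.961), Togaram1 (0.958) and Fbxl14 (0.958) for Ier2, and Tubb4b-ps2 (0.817), Lrpap1 (0.811) and Gm12070 (0.802) for Egr1.

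Other genes of the pathway were followed from 7 lists of general knowledge, and the counts are to be read beside the 47.2% (30.3% up) and 63.7% (33.9% up) of all genes that entinostat moved without and with doxycycline. Listed genes that lay under the filter's limit of 0.213 CPM in DMSO, such as Batf3, Ier5l and Mapk12, entered the test through entinostat libraries. These could only have risen, so that their part of the counts is a description. Of 17 other immediate early transcription factors tested, 11 rose and 3 fell with entinostat without doxycycline (median log2 fold change 1.28, against 0.069 over all genes), among them the repressor Hes1 (2.44 ± 0.21, from 1.73 ± 0.348 to 9.36 ± 0.834 CPM, adjusted p = 2.89e-06), Id3, an inhibitor of basic helix-loop-helix factors (2.80 ± 0.28), Atf3 (1.92 ± 0.19) and Klf6 (0.999 ± 0.16). In cells given doxycycline, 9 rose and 4 fell (median 0.64, against 0.14), and Myc was among those that fell (-2.40 ± 0.27, from 212 ± 58.8 to 40.1 ± 0.528 CPM). Immediate early genes that are not transcription factors rose in 11 and fell in 2 of 20 cases without doxycycline (median 0.74), by smallest adjusted p Arl4d (4.17 ± 0.28), the kinase Sgk1 (1.86 ± 0.16) and Ier3 (2.34 ± 0.27), with the kinase Plk3 lower (-1.35 ± 0.18). With doxycycline 8 rose and 4 fell (median 0.20).

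The partners of AP-1 went both ways, 3 up and 3 down of 9 with entinostat in either background. Batf3, which could only have risen, went from 0.0518 ± 0.0348 to 0.900 ± 0.229 CPM without doxycycline (4.06 ± 0.64), and the small MAF genes Mafg (-1.42 ± 0.14) and Mafk (-1.36 ± 0.19) fell. The upstream regulators also went both ways. Crem, a CREB relative, rose (1.93 ± 0.26 without and 2.46 ± 0.27 with doxycycline), and Srf, which binds the CArG box, fell from 22.7 ± 1.99 to 11.99 ± 4.55 CPM (-0.92 ± 0.27, adjusted p = 0.0147) without and from 28.8 ± 7.96 to 7.58 ± 0.570 CPM (-1.93 ± 0.28, adjusted p = 0.000108) with doxycycline. Of 14 SRF, ternary complex and CREB genes, 3 rose and 2 fell without doxycycline and 2 rose and 5 fell with it (medians 0.23 and -0.23). Of 21 MAP kinase pathway kinases, 5 rose and 4 fell without and 4 rose and 8 fell with doxycycline (medians -0.21 and -0.28). The MAP kinase phosphatases, which switch the pathway off, rose in 6 and fell in 1 of 10 cases without doxycycline (median 0.81; Dusp8 3.20 ± 0.43, Dusp2 -1.26 ± 0.21), and rose in 0 and fell in 3 with it (median -0.067). Called genes made up 66.7% of the AP-1 partners in either background, 35.7 and 50% of the SRF and CREB genes, 42.9 and 57.1% of the kinases and 70 and 30% of the phosphatases without and with doxycycline, with 82.4 and 76.5% of the other transcription factors and 65 and 60% of the other genes, and nothing particular to a list is read from these shares. The 2 NAB corepressors of EGR proteins did not pass in any comparison.

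Doxycycline moved 13.6% of all genes in experiment 1, 9.31% in DMSO and 24% in entinostat, fewer than entinostat did, and its counts in the lists are to be read beside these shares. Id1, an inhibitor of basic helix-loop-helix factors like Id3, fell in experiment 1 (-2.94 ± 0.081, from 38.6 ± 0.272 to 5.01 ± 0.201 CPM, adjusted p = 0.000178) and in DMSO (-2.81 ± 0.29, adjusted p = 4.84e-05). Atf3 rose in both (1.11 ± 0.21 and 0.89 ± 0.19), as did the phosphatase gene Dusp8 (3.28 ± 0.38 and 3.75 ± 0.43), while the survival gene Mcl1 fell in both (-0.97 ± 0.085 and -0.97 ± 0.16). In experiment 1, 2 of 17 other immediate early factors rose and 2 fell, and 2 of 20 other immediate early genes rose and 5 fell (median log2 fold changes 0.23 and -0.093, against 0.023 over all genes). In DMSO the counts were 1 and 2, and 2 and 4 (medians 0.21 and -0.068, against 0.052). In entinostat Id1 (-0.85 ± 0.27, adjusted p = 0.0406) and Mcl1 (-1.14, 0.000901) fell, and Atf3 (0.24, 0.322) and Dusp8 (0.87, 0.0913) did not pass.

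**Figure D4:**
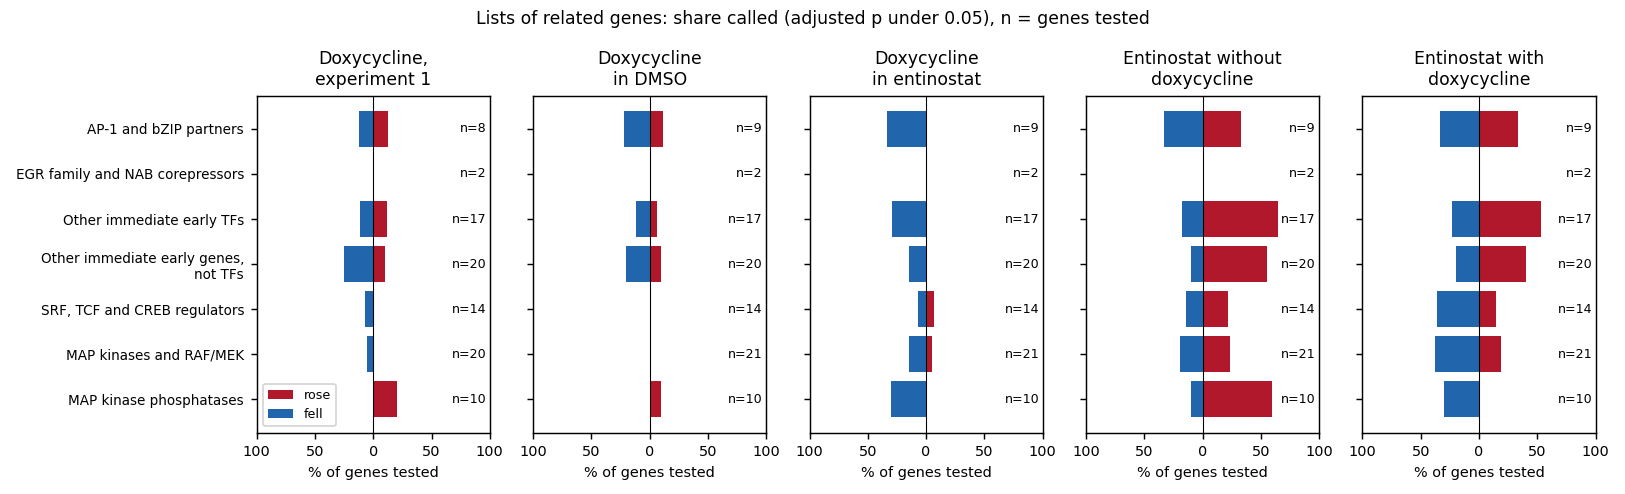
Share of tested genes in each of 7 lists that rose (right, red) or fell (left, blue) at an adjusted p under 0.05 in 5 comparisons, with the number of genes tested. Entinostat without doxycycline raised 11 of 17 other immediate early transcription factors and 6 of 10 MAP kinase phosphatases; Atf3, Maff and Srf each stand in 2 lists.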

How the data were processed

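Polyadenylated RNA was sequenced from 18 libraries with an unstranded kit, per the labels' protocols. The deposited tables hold the authors' raw counts per gene, 1 table per experiment. STAR, DESeq2, mm10 and bcl2fastq 2.17.1.14 are named, per the submitters' processing notes; roles, counter and annotation are not given in the sources used here. Experiment 1 has no count under 1. Each experiment was fitted alone with edgeR 4.0.16 (R 4.3.3; TMM, filterByExpr, quasi-likelihood test, two-sided, Benjamini-Hochberg over all genes tested, threshold 0.05), keeping 13811 and 15051 genes. The common coefficient of variation was 0.194 and 0.242. Errors are SD over 3 libraries for levels and standard errors for log2 fold changes, and intervals are 95%. Alternatives included DESeq2 1.42.0 and limma-voom 3.58.1. Lengths and coordinates come from GENCODE M21 (mm10). The scripts were tested on simulated data.

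Replicate numbers were taken to pair libraries in experiment 1, where same-number libraries deviated together (r = 0.313 to 0.829, other pairs up to 0.259), and for doxycycline in DMSO (r = 0.102 to 0.334, other pairs up to 0.214), with every same-number pair over the limit of 0.1. In DMSO the 2 ranges overlap, so the pairing there is weak. The block in experiment 2 was fitted over all 12 libraries. In the other comparisons of experiment 2 a pair lay under that limit (lowest 0.0964 for entinostat without doxycycline, 0.0285 with it and 0.0645 for doxycycline in entinostat). Entinostat without doxycycline missed the limit narrowly. Its other same-number pairs had r = 0.336 and 0.315, and its different-number pairs reached 0.216, close to the values in DMSO. The text names the 10 members, Spi1, genes overlapping members, up to 4 called genes per list and comparison with the smallest adjusted p, and for members of at least 5 CPM the 3 genes most alike. The members, lists and rules were chosen with earlier results of these data known. Reads carry no molecular identifiers, so intervals on counts cover counting error only.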

Additional observations from a re-analysis of the deposited data

How the results depend on the processing

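The number of members called was recomputed under each alternative. With the replicate block it was 3 in experiment 1, where 50.9% of all genes were called. For doxycycline in DMSO it was 1 (Egr1, -0.69, adjusted p = 0.0362), where 13.5% of all genes were called. With the block and the GC and length trend removed (chosen after seeing the data) it was 3 (Fosb, Jun and Junb), 1 and, for the interaction, 1 (Egr1, 1.07, adjusted p = 0.0396). The shares of all genes were then 54.8%, 18.7% and 1.65%. Some comparisons had a same-number pair under the pairing limit. There the block gave 6 up and 2 down for entinostat without doxycycline (adding Egr1, -0.62, adjusted p = 0.0179, and Junb, -0.44, 0.0276), where 55.2% of all genes were called. For doxycycline in entinostat it gave 4 down (adding Jund, -0.59, 0.0451), where 40.6% of all genes were called. The interaction stayed at 0 (1.18% of all genes) and entinostat with doxycycline at 8 (71.7%). With 1 CPM in at least 3 libraries, which drops the 4 low genes, 2 were called for entinostat without and 5 with doxycycline (45% and 64.1% of all genes). For doxycycline in entinostat the count was 0 when a 2-fold change was required (13.4% of all genes) and 1 with the trend removed (28.3%). Leaving out each library gave 0 to 3 members for doxycycline in entinostat (6.42 to 48.9% of all genes). For entinostat it gave 4 to 6 without doxycycline (38.5 to 52.5%) and 4 to 8 with it (53.3 to 70.1%). For the interaction it gave 0 to 2 (0.0583 to 19.7%), which reached 4 (51.5%) without the first Dox_DMSO and NoDox_Entinostat libraries. For the other alternatives the counts stayed within 1.5 times.

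The signs that turned were those of estimates that had not passed the test. Egr1 in experiment 1 was -0.047 with limma-voom, -0.042 with the block and -0.025 with block and trend removal. Egr1 for entinostat with doxycycline was 0.081 with library size alone, 0.070 with 1 CPM in at least 3 libraries, 0.036 with limma-voom, 0.033 with the block, 0.080 with the groups alone, 0.68 with the trend removed and 0.73 with block and trend removal, and Egr1 for doxycycline in entinostat was 0.36 and 0.37 in the last pair. Junb in DMSO was -0.0075 with library size alone, and -0.13 with the trend removed in either way; Ier2 for entinostat without doxycycline was 0.026 with library size alone. The interaction with the trend removed was 0.25 in either way for Fosl2, and 0.18 and, with the block, 0.21 for Egr3. Over libraries left out, Egr1 ran from -0.46 to 0.23 in experiment 1, -0.28 to 0.43 for entinostat with doxycycline and -0.37 to 0.19 for doxycycline in entinostat. In DMSO doxycycline gave -0.24 to 0.82 for Fosb, -0.18 to 0.13 for Junb and -3.58 to 2.72 for Egr3, and in entinostat -0.68 to 0.25 for Fos and -0.11 to 0.76 for Egr2. Jund ran from -0.28 to 0.31 for entinostat without doxycycline and Egr3 from -3.70 to 2.60 for the interaction. The cause was not tested. Depth limits Fos, Fosb, Egr2 and Egr3, which rest on few counts.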

Other observations

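Between the tables, which were made separately and whose untreated groups were not tested against each other, some members stood at other levels. In the order Exp1_NoDox and NoDox_DMSO, Jund was at 18.4 ± 4.93 and 2.27 ± 0.579 CPM, Junb at 46.9 ± 5.04 and 16.9 ± 2.54 CPM, and Ier2 at 24.8 ± 1.84 and 15.7 ± 1.73 CPM. Jun was at 2.08 ± 0.467 and 1.15 ± 0.350 CPM, whereas Egr1 was at 18.3 ± 4.22 and 16.8 ± 4.98 CPM and Fosl2 at 2.77 ± 0.128 and 2.65 ± 0.466 CPM. The GC content of the longest transcript was 67.1% for Jund, 62.6% for Junb, 60.9% for Ier2, 55.5% for Jun, 57.3% for Egr1 and 53.1% for Fosl2. Its part in these levels was not tested.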
